A study of Homo sapiens with 12 samples.

Results

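DEAD-box and DEAH-box RNA helicases were followed in A2780 cells, an established human ovarian carcinoma line, left untreated (control) or exposed for 6 h to 3 µM of a cell cycle inhibitor that the labels do not name (treated). The family was taken as every gene whose current symbol is DDX or DHX followed by a digit and that had a probe annotated to it alone; DDX6 and the Y-linked paralog of DDX3X were left out. This gave 50 helicase genes, 34 DDX and 16 DHX, of 20783 genes with a single-gene probe. The same RNA was hybridised to Affymetrix arrays (AFFX), on which several short oligonucleotides form a probe set, and to Applied Biosystems arrays (ABI), on which most genes have 1 longer oligonucleotide. AFFX measured 49 of the helicase genes with 114 probe sets and ABI measured 44 with 51 probes, and 43 genes were on both. DDX47 was on ABI alone, and DDX17, DDX42, DDX53, DDX55, DDX59 and DHX57 were on AFFX alone. DDX18 was not analysed here, and DDX39B was met only on probes shared with other genes. A further 5 loci with such symbols (DDX11-AS1, DDX11L2, DDX19A-DT, DDX59-AS1 and DHX9-AS1) encode no helicase, and none of them passed the thresholds below on either platform.

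Each condition was a single RNA pool made from 3 cultures of attached cells, divided into aliquots, with 3 arrays per condition on each platform and 12 arrays in all. The arrays of a group are therefore technical replicates, so p-values measure only the spread between aliquots and compare 2 pools. Signals are on a log2 scale and relative to the other RNA on the array. A lower signal in every cell and the same signal in fewer cells cannot be told apart. The median SD between arrays of a group was 0.0976 to 0.113 on AFFX and 0.261 to 0.298 on ABI. Array medians were 5.37 to 5.47 on AFFX, and those of ABI were 0.08 to 0.25. Precision was limited by having 3 arrays per group. None of 9 measured leukocyte markers was called on either platform. At an unadjusted limma p below 0.05 and 1.5-fold 1 was lower and 1 higher on ABI, and their summed log2 signal was 8.22 to 8.31 in control and 8.46 to 8.65 in treated AFFX arrays. Of 8 fibroblast and endothelial markers, COL3A1 was called lower on AFFX and none was called on ABI, with summed log2 signals of 9.47 to 9.50 in control and 9.57 to 9.61 in treated AFFX arrays. Of the epithelial markers, EPCAM, CDH1 and KRT19 had control signals of 4.23, 4.17 and 4.62 on AFFX, below every array median. KRT8, KRT18 and PAX8 had 6.20, 5.93 and 7.65, above every array median. KRT18, on ABI, was the one marker of this list called (lower), and it changed by 0.18 on AFFX (limma adjusted p = 0.165).

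DEAD-box and DEAH-box proteins use ATP to open RNA helices or to pull proteins off RNA, and their names spell the amino acids of the motif that binds and splits ATP. DEAD-box enzymes bind and pry open short helices locally, whereas DEAH-box enzymes travel along a single strand and are often switched on by partner proteins with a G-patch domain. Most steps in the life of an RNA have a helicase of their own, from the assembly and remodelling of the spliceosome, through the folding of ribosomal RNA in the nucleolus and mitochondria, to the export, translation and decay of mRNA.

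The falls that both platforms shared were those of DDX20, DDX28, DDX31, DHX32 and DHX36. These genes act in the assembly of splicing particles (DDX20), in the mitochondrial ribosome (DDX28), in the nucleolus (DDX31) and on folded mRNA (DHX36), and DHX32 is little studied. RefSeq start-site windows (GRCh38.p14) were matched for 46 of the helicase genes and for each of these 5. The 150 bases before the start are shown for DDX20 and DDX28, whose falls were the largest on both platforms, and for DHX36, which carries the same 8-base element as DDX28. Capitals mark the cyclic AMP response element TGACGTCA, bound by CREB and ATF proteins, or the CCAAT box, searched on both strands.
DDX20, chr1:111755751-111755900, plus strand: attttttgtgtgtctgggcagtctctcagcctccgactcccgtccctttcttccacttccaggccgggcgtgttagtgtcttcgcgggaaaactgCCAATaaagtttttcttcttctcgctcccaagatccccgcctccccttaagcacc
DDX28, chr16:68023233-68023382, minus strand: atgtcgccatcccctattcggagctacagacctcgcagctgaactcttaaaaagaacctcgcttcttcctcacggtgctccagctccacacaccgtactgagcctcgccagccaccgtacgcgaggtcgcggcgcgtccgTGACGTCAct
DHX36, chr3:154324488-154324637, minus strand: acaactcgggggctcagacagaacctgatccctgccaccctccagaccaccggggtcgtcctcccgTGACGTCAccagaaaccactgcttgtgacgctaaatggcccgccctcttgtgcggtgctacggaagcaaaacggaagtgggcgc

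The response element began 10 bases before the start of DDX28 and 84 bases before that of DHX36, and the CCAAT box 55 bases before that of DDX20. The element was picked after these windows had been read, so the count that follows includes windows already seen, those of DDX28 and DHX36. Over the whole window, from 250 bases before to 50 after the start, it was in those of 5 of the 46 helicase genes (10.9%: DDX10, DDX19A, DDX28, DDX51 and DHX36), against 2.25% of 27305 genes. DDX10, DDX19A and DDX51 were not called on either platform. The CCAAT box was present for 54.3% of the helicase genes and 39.7% of all genes. The E-box CACGTG was present for 21.7% and 8.77%, DDX31 and DHX32 among the former. The E-box shares the letters ACGT with the response element, and no base of the stretches shown lay in both. All genes here are those with a RefSeq window, whether on the arrays or not, and genes of like signal were not compared. The shares of these motifs are therefore not shown to be particular to the family. A match is a description of letters, not evidence of a bound factor.

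A gene was called when limma gave an adjusted p (Benjamini-Hochberg over all probes) below 0.05 and a change of at least 1.5-fold. On AFFX 10 of 49 helicase genes were lower and none higher. This is 20.4% lower, where 14.2% of all genes were called lower and 2.49% higher. At an unadjusted p below 0.05 and the same fold limit, again none was higher. On ABI 8 of 44 were lower (18.2%) and 1 was higher (2.27%), against 14.8% and 6.31% of all genes. The 5 genes lower on both platforms were 11.6% of the 43 measured on both, against 10.5% of all shared genes, and none was higher on both, where 0.42% of all shared genes were. None was called in opposite directions. A share lower on both so close to that of all genes is not a result about the family.

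By the adjusted p alone, with changes of any size, 20 helicase genes were lower on AFFX (40.8%) and 8 higher (16.3%), where 21.8% of all genes were lower and 33.1% higher. On ABI these counts were 9 (20.5%) and 1 (2.27%), against 15.8% and 8.41%. The median log2 change of the helicase genes was -0.10 on AFFX, with 0.16 for all genes, and -0.25 on ABI, with 0.09 for all genes. Only 11 of the 49 AFFX and 7 of the 44 ABI representatives had a mean signal below the median of single-gene probes. A comparison with genes of like signal was not made. These shares and medians are therefore not shown to be particular to the family. DDX and DHX genes had medians of -0.03 and -0.22 on AFFX and of -0.22 and -0.28 on ABI. The AFFX spiked bacterial controls, whose amounts per sample are not given in the sources used here, were 0.42 higher in treated than in control arrays on the log2 scale. A 2-sided exact permutation test gave p = 0.1, and with 3 arrays per group no lower p is possible. Centred on them, 23 helicase genes were lower on AFFX, so the number called depends on the scaling. That centring lowered the change of every AFFX probe by 0.42, and the share of all genes it called lower was not computed.

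**Figure D1:**
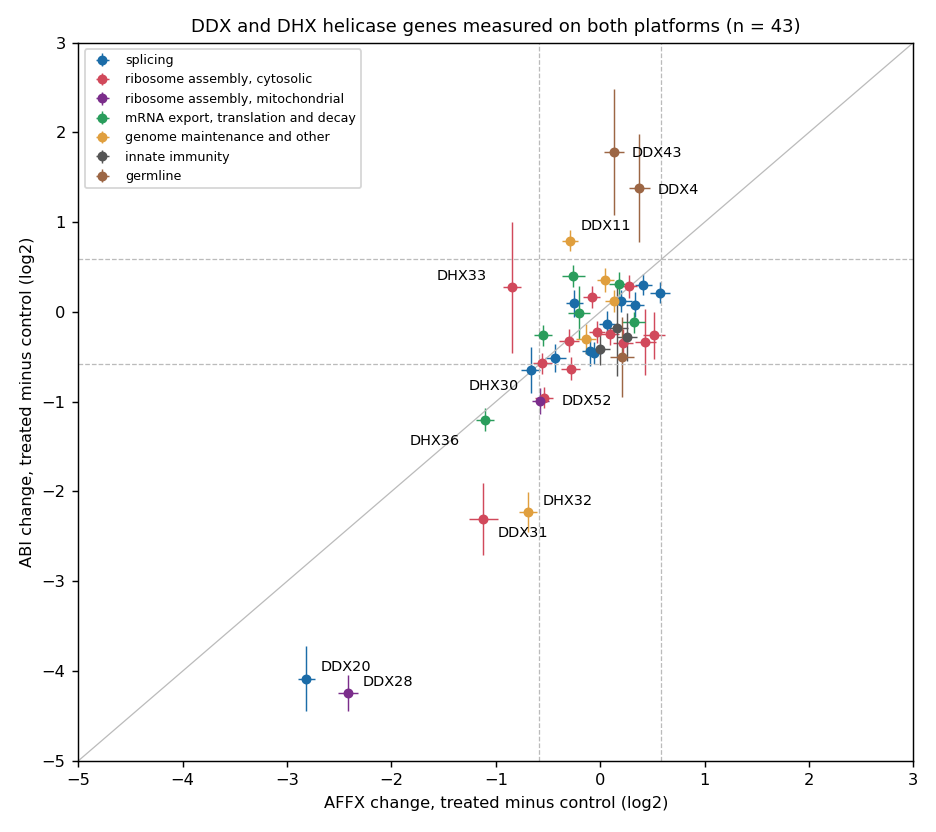
Change of each of the 43 helicase genes measured on both platforms, treated minus control on the log2 scale, AFFX on the x axis and ABI on the y axis; points are limma estimates of the gene's representative probe, bars standard errors (3 arrays per group), colours roles, dashed lines the 1.5-fold limit and the solid line equal change. DDX20 and DDX28 lie at -2.81 and -2.42 on AFFX and at -4.08 and -4.24 on ABI, and DDX11 lies at -0.29 and 0.80.

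Across the 43 genes the changes on the platforms had a Pearson r of 0.83 and a Spearman rho of 0.56, points that share the same 2 RNA pools. Without the 5 genes lower on both, r was 0.35 over 38 genes. For all 16186 shared genes, r was 0.66 and rho 0.50. Each of the 5 genes lower on both had the larger fall on ABI, as did 77.4% of the 1698 shared genes lower on both.

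Helicases of splicing. Among 13 such genes on AFFX, DDX20, DDX17 and DHX8 were lower, and among 11 on ABI DDX20 alone. DDX20, also called Gemin3, belongs to the SMN complex, which loads Sm proteins onto small nuclear RNAs. Its AFFX log2 signals were 8.92, 8.80 and 8.85 in control and 6.04, 5.99 and 6.09 in treated arrays, and on ABI 3.37, 3.41 and 3.33 in control and 0.11, -1.12 and -1.12 in treated arrays. Control and treated arrays lay far apart on both platforms, and 2 of the 3 treated ABI signals were below every ABI array median. The fall was 7.04-fold on AFFX (log2 change -2.81, SE 0.081, limma adjusted p = 4.18e-09) and the ABI log2 change was -4.08 (SE 0.36, adjusted p = 0.00187). The ABI data used here carry no detection call, and with 0.5 added to each intensity that change was -3.26, so the size of the ABI fall is uncertain. The other AFFX probe set of DDX20 fell by 2.42 on the log2 scale (limma adjusted p = 3.27e-07), so its probe sets moved alike.

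DHX8, the human Prp22, frees the spliced mRNA from the spliceosome. Its representative AFFX probe set read 7.55, 7.49 and 7.73 in control and 6.91, 7.0 and 6.86 in treated arrays, with no overlap (log2 change -0.67, SE 0.092, limma adjusted p = 0.000238). The other DHX8 probe sets changed by -0.04 and 0.33 and were not called. On ABI its log2 change was -0.65 (SE 0.25, adjusted p = 0.135), with signals that overlapped. DDX17 (p72), a co-regulator of transcription and splicing, was called through 1 of 5 probe sets, whose signals were 5.24, 5.37 and 5.29 in control and 4.62, 4.62 and 4.52 in treated arrays. The means of that set, 5.30 and 4.59, were below every AFFX array median. The brightest of its probe sets changed by -0.45 and stayed within the 1.5-fold limit. DDX17 was not called with the dim probes left out, with its brightest set or with the median over sets. It was also not called without AFFX control replicate 2 or without treated replicate 2.

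DDX5 (p68), the close paralog of DDX17, had the highest AFFX change among the representatives of the helicase genes. Its log2 signals were 7.74, 7.66 and 7.51 in control and 8.31, 8.25 and 8.08 in treated arrays, which did not overlap. The log2 change of 0.57 (SE 0.096, limma adjusted p = 0.000998) was 1.49-fold, just under the limit, and on ABI it was 0.21 (adjusted p = 0.262). A brighter AFFX set, annotated to DDX5 together with MIR5047 and MIR3064 and so outside the counts, changed by -0.20 (adjusted p = 0.134). DDX42, a helicase associated with the U2 particle, was just under the limit too (-0.51), but another of its probe sets was called lower with -1.04. The spliceosomal helicases DDX23 (Prp28), DHX16 (Prp2), DHX38 (Prp16) and DDX46 (Prp5) had AFFX changes between -0.10 and 0.20, and none was called on either platform. DHX15, the human Prp43 that takes spent spliceosomes apart, is named for its mean AFFX signal, with values of 11.03, 10.88 and 10.95 in control and 10.75, 10.71 and 10.67 in treated arrays. Its change was -0.25 on AFFX (limma adjusted p = 0.0334, under the 1.5-fold limit) and 0.10 on ABI (adjusted p = 0.708). DHX35, DDX39A and DDX41 had AFFX changes of -0.43, 0.41 and 0.33 and were not called on ABI either.

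**Figure D2:**
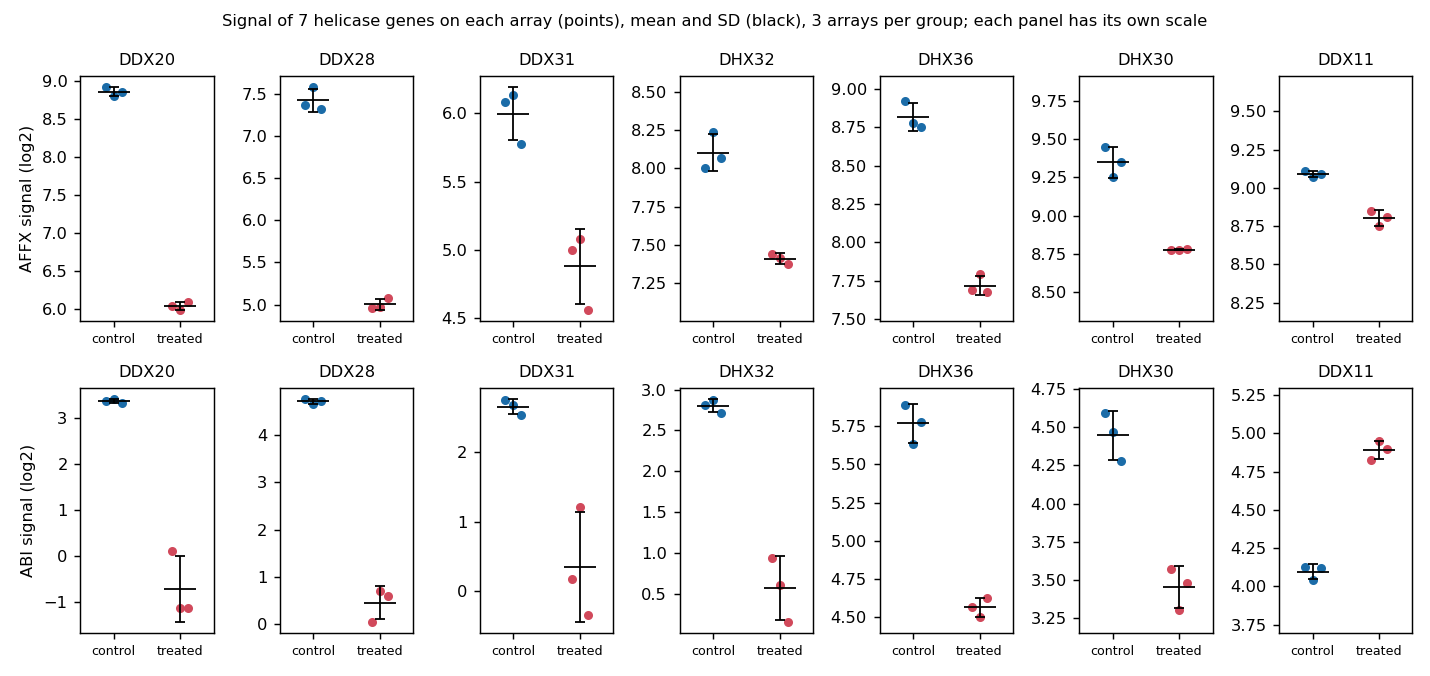
Log2 signal of the representative probe of 7 helicase genes on each array, AFFX above and ABI below, each panel with its own scale; points are arrays, black bars the mean and SD (3 control arrays in blue, 3 treated in red). Control and treated arrays do not overlap in any panel, and DDX11 is lower in treated arrays on AFFX and higher on ABI.

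Helicases of cytosolic ribosome assembly. This was the largest role group, with 14 genes on each platform. DDX31, DDX55 and DHX33 were lower on AFFX, DDX31, DDX52 and DDX56 on ABI, and none was higher. The group's median log2 change was -0.18 on AFFX and -0.29 on ABI, beside 0.16 and 0.09 for all genes. DDX31, the counterpart of yeast Dbp7 in the large subunit pathway, had AFFX signals of 6.08, 6.14 and 5.78 in control and 5.00, 5.08 and 4.56 in treated arrays (log2 change -1.12, SE 0.14, limma adjusted p = 0.000126). Its ABI signals were 2.75, 2.68 and 2.54 in control and 0.18, 1.21 and -0.34 in treated arrays (log2 change -2.31, SE 0.40, adjusted p = 0.0158). The groups were separate on both platforms, and the treated ABI arrays were far more scattered than the control arrays. The treated ABI signals lay around the ABI array medians, with no detection call, so the size of the ABI fall is uncertain. The probes of DDX31 did not agree on the size: another AFFX set was also called lower (-0.78), the remaining set changed by 0.20, and the other ABI probe changed by -0.14. Without any 1 of the 3 control arrays or without treated replicate 1 on ABI, its adjusted p was 0.0526 to 0.0605, and it was no longer called there.

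DDX55, the counterpart of yeast Spb4 in the large subunit pathway, was measured by a single AFFX probe set. It read 7.71, 7.48 and 7.55 in control and 6.49, 6.64 and 6.49 in treated arrays, a 2.05-fold fall without overlap (log2 change -1.04, SE 0.092, limma adjusted p = 7.4e-06). DHX33, a nucleolar helicase of ribosomal RNA transcription, read 9.33, 9.24 and 9.40 in control and 8.54, 8.50 and 8.39 in treated AFFX arrays (log2 change -0.84, adjusted p = 2.39e-05). Its second AFFX set changed by -0.22, and its ABI signals overlapped widely, from -0.17 to 1.05 in control and from -0.76 to 1.92 in treated arrays.

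DDX52, the counterpart of yeast Rok1 in the small subunit pathway, had ABI signals of 3.95, 3.82 and 3.76 in control and 2.90, 2.92 and 2.85 in treated arrays (log2 change -0.95, SE 0.12, limma adjusted p = 0.00574). A further ABI probe was called lower as well (-0.81), and the other changed by -0.36. On AFFX its representative lay just under the limit with -0.54 (adjusted p = 0.00059), and the other sets changed by -0.07 to 0.04. DDX56, the counterpart of Dbp9, fell 1.55-fold on ABI (log2 change -0.63, adjusted p = 0.0246) and had -0.28 on AFFX. Without any 1 of 5 of the ABI arrays (all but treated replicate 1) DDX56 was not called on ABI. DDX50 had -0.55 for its AFFX representative (adjusted p = 0.000865) and -0.57 on ABI (adjusted p = 0.024), each within the 1.5-fold limit, while its other AFFX sets changed by 0.26 and 0.19 and were not called.

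DDX21, a nucleolar helicase of ribosomal RNA transcription and processing and the paralog of DDX50, is named for its mean AFFX signal. It read 11.60, 11.50 and 11.47 in control and 11.45, 11.52 and 11.36 in treated arrays, which overlapped. Its log2 change was -0.08 on AFFX (SE 0.084, limma adjusted p = 0.464) and 0.17 on ABI (SE 0.12, adjusted p = 0.393). The rest of the group, DDX10, DDX24, DDX27, DDX47, DDX49, DDX51, DDX54 and DHX37, was not called on either platform. Of these, DDX51 and DDX54 of the large subunit pathway had the highest AFFX representatives, 0.51 and 0.43, with -0.26 and -0.33 on ABI. The other AFFX sets of DDX51, both with higher signals, changed by -0.23 and -0.15, and those of DDX54 by 0.15 and 0.12.

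Helicases of the mitochondrial ribosome. DDX28 binds the large subunit of the mitochondrial ribosome during its assembly, and DHX30 sits with it in mitochondrial RNA granules. DDX28 had the largest ABI fall of the family. Its ABI signals were 4.75, 4.64 and 4.71 in control and 0.06, 0.70 and 0.60 in treated arrays, and its AFFX signals were 7.36, 7.58 and 7.32 in control and 4.97, 4.97 and 5.08 in treated arrays. The treated signals lay below every array median on AFFX and close to or somewhat above the array medians on ABI, where no detection call shows them to be above background. The log2 change was -4.24 on ABI (SE 0.20, limma adjusted p = 0.000542) and -2.42 on AFFX (SE 0.093, adjusted p = 2.09e-08). The size on AFFX depended on the probe set and setting: it was -1.81 without control replicate 3, -1.59 after quantile normalization and -1.04 as the median over sets, each still called. The call for the median over sets used the median of the sets' adjusted p-values, which is no test of the median change. A further AFFX set, the one with the highest mean, was called lower with -1.74, and the remaining DDX28 sets, both dim, changed by -0.33 and 0.21 and were not called.

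DHX30 was lower on ABI, where it read 4.59, 4.47 and 4.28 in control and 3.58, 3.31 and 3.48 in treated arrays (log2 change -0.99, SE 0.15, limma adjusted p = 0.01). On AFFX its probe sets pointed both ways. The representative read 9.45, 9.25 and 9.35 in control and 8.77, 8.78 and 8.78 in treated arrays, a change of -0.57 that was 1.49-fold and so just under the limit (adjusted p = 0.000388), and a second bright set changed by -0.53. Another set read 7.23, 7.07 and 6.96 in control and 7.72, 7.92 and 7.53 in treated arrays and was called higher, with 0.64 (adjusted p = 0.00143). It was the only helicase probe set called higher on AFFX.

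**Figure D3:**
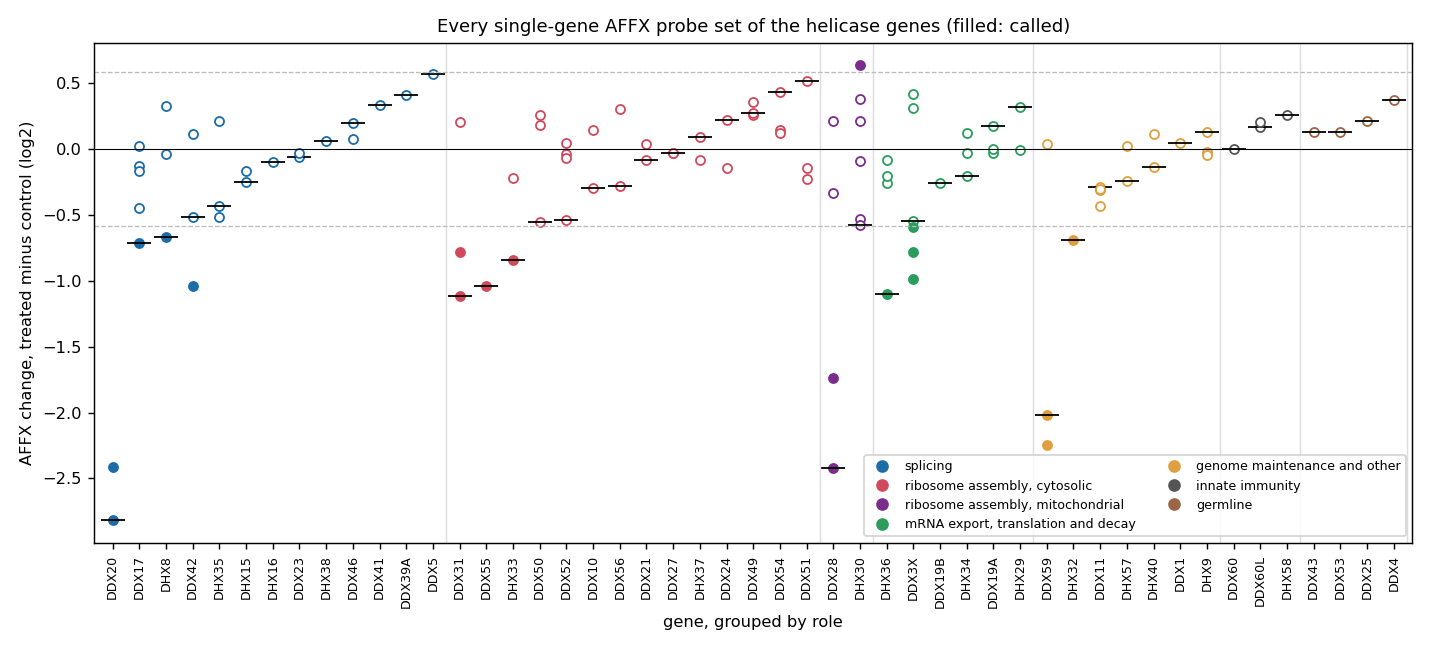
Log2 change, treated minus control, of each of the 114 single-gene AFFX probe sets of 49 helicase genes, grouped by role; filled circles were called, open circles were not, a black bar marks the gene's representative and dashed lines the 1.5-fold limit. Of the 114 sets 18 are called lower and 1, of DHX30, is called higher.

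Over the whole family, 18 of the 114 AFFX probe sets were called lower (15.8%) and 1 was called higher (0.877%), against 10.4% and 1.71% of all single-gene probe sets. Several probe sets were available for 34 helicase genes, and 10 of these had at least 1 set called lower. Only for DDX20 were all sets called, and for the other 9 at least 1 set was not. No gene had sets called in opposite directions. These counts were not made for all genes with several sets, so they are not a result about the family. As the representative was the probe with the lowest p, folds of genes with several probes lean towards larger values.

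Helicases of mRNA export, translation and decay. DHX36, which unwinds G-quadruplexes in DNA and RNA, was the single member of this group called, on both platforms. Its AFFX representative read 8.92, 8.78 and 8.75 in control and 7.69, 7.79 and 7.67 in treated arrays, and its ABI probe 5.89, 5.63 and 5.78 in control and 4.57, 4.5 and 4.63 in treated arrays. The falls were of like size, 2.14-fold on AFFX (log2 change -1.10, SE 0.086, limma adjusted p = 2.61e-06) and 2.30-fold on ABI (log2 change -1.20, SE 0.13, adjusted p = 0.00336). The other AFFX sets of DHX36 changed by -0.26 to -0.08 and were not called, and with the brightest set as its representative DHX36 was not lower on AFFX (-0.20, adjusted p = 0.0731).

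DDX3X, which helps translate mRNAs with structured leaders, was not called on AFFX because its representative lay within the limit (-0.55). Yet 3 of its 6 sets were called lower, with -0.98, -0.78 and -0.59. The set with -0.98 read 10.14, 9.96 and 9.80 in control and 9.07, 9.20 and 8.69 in treated arrays. Its other 2 sets, both dim, changed by 0.31 and 0.42, and on ABI the change was -0.26 (limma adjusted p = 0.177). The export factors DDX19A and DDX19B, the initiation helicase DHX29 and the nonsense-mediated decay factor DHX34 had AFFX changes between -0.26 and 0.32 and were not called on either platform.

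Helicases of genome maintenance and other roles. DDX59, mutated in an orofaciodigital syndrome, was measured on AFFX alone. Its representative read 6.99, 6.77 and 6.67 in control and 4.70, 5.06 and 4.61 in treated arrays, a 4.06-fold fall (log2 change -2.02, SE 0.13, limma adjusted p = 5.13e-07). A second set fell by 2.25 on the log2 scale. The remaining set, whose identifier marks it as one that may cross-hybridise, read 7.50, 7.57 and 7.35 in control and 7.46, 7.54 and 7.53 in treated arrays and did not separate them.

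DHX32 had AFFX signals of 8.0, 8.24 and 8.07 in control and 7.44, 7.42 and 7.37 in treated arrays, and ABI signals of 2.82, 2.88 and 2.72 in control and 0.94, 0.61 and 0.16 in treated arrays. The groups were separate on both platforms. The fall was 1.61-fold on AFFX (log2 change -0.69, SE 0.088, limma adjusted p = 0.000137) and 4.69-fold on ABI (log2 change -2.23, SE 0.22, adjusted p = 0.00268), and the platforms differed by -1.54 (SE 0.23, adjusted p = 0.00205 over the shared genes). The treated ABI signals lay close to or somewhat above the ABI array medians, and no detection call shows them to be above background. The sizes of the ABI fall and of the platform difference are therefore uncertain.

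DDX11 (ChlR1), a DNA helicase needed for the cohesion of sister chromatids, was the one helicase gene called higher on ABI. Its ABI signals were 4.13, 4.04 and 4.12 in control and 4.83, 4.95 and 4.90 in treated arrays (log2 change 0.80, SE 0.11, limma adjusted p = 0.00892). On AFFX each of its 4 probe sets was lower in treated arrays, by -0.29 to -0.43 with adjusted p from 0.00373 to 0.0247, all within the 1.5-fold limit. The representative read 9.11, 9.07 and 9.09 in control and 8.85, 8.75 and 8.81 in treated arrays, so that groups did not overlap on either platform yet stood in opposite order. After centring on ribosomal protein genes the ABI change was 0.15 and no longer called. On AFFX that centring also made the set with -0.43 the representative, which was then called lower with -0.73. DDX11 has near-identical copies in the genome, the pseudogene DDX12P among them, and which copies each probe reads was not tested.

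The rest of this group was not called on either platform where measured. DDX1, of the tRNA ligase complex, is named for its mean AFFX signal, with 11.21, 11.12 and 11.14 in control and 11.26, 11.21 and 11.14 in treated arrays, which overlapped (log2 change 0.05, limma adjusted p = 0.655). Its sign turned with arrays centred on their median, on ribosomal protein genes or on spiked controls, and after quantile normalization. DHX9 (RNA helicase A), DHX40 and DHX57 had AFFX changes of 0.13, -0.14 and -0.24.

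Helicases of innate immunity and of the germline. None of the 3 interferon-linked genes (DDX60, DDX60L and DHX58) and none of the 4 germline genes (DDX4, DDX25, DDX43 and DDX53) was called on either platform. By the unadjusted p of limma with the same fold limit, 1 germline gene was higher on ABI, DDX43, and no gene of either group was called on AFFX. DHX58 (LGP2), a relative of the RNA sensor RIG-I, read 5.64, 5.78 and 5.82 in control and 5.99, 5.88 and 6.14 in treated AFFX arrays (log2 change 0.26, limma adjusted p = 0.0539) and had -0.28 on ABI (adjusted p = 0.516). DDX25, a testis helicase named for its mean AFFX signal, had overlapping groups on both platforms, with changes of 0.21 (limma adjusted p = 0.16) and -0.51 (adjusted p = 0.485). DDX43 and DDX4 had the highest ABI changes of the family, 1.79 and 1.38, with SEs of 0.70 and 0.60 and limma adjusted p of 0.136 and 0.17. DDX43 read -2.12, -2.74 and -2.74 in control and 0.82, -1.22 and -1.84 in treated ABI arrays. DDX4 read -3.32 to -1.36 in control and -1.51 to -0.18 in treated ABI arrays, which overlapped. Apart from the 0.82 of DDX43, these signals were below every ABI array median, so neither rise is shown to be above background. On AFFX the same genes had 0.13 and 0.38.

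The difference between the platforms was tested for each shared gene. It passed an adjusted p of 0.05 for 5 of the 43 helicase genes (11.6%), against 15.1% of all shared genes. For DDX28, DHX32 and DDX52 the ABI change was the lower, and for DDX11 and DDX19B the ABI change was the higher. DDX20 missed it with a difference of -1.27 (limma adjusted p = 0.0511), and DHX36 had -0.10 (adjusted p = 0.667). The count ranged from 3 to 9 with 1 array left out: 3 without AFFX control replicate 2 or treated replicate 2, and 9 without ABI treated replicate 1. DDX11, DDX28 and DHX32 were in each of these sets. The test took 1 variance per gene for both platforms, although ABI arrays scattered more than AFFX arrays. For DDX11 the SE of the difference (0.10) was below that of its ABI change alone (0.11). The adjusted p-values of the difference are therefore approximate.

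Partners and relatives of the family were taken from lists chosen with earlier results of these data known. Of 21 genes of G-patch proteins on AFFX 12 were lower and none higher, and of 19 on ABI 7 were lower and none higher, where 14.2% and 14.8% of all genes were lower. By limma's unadjusted p below 0.05 with the same fold limit none was higher on either platform. With the median change and median adjusted p over a gene's probes in place of the probe with the lowest p, 5 were lower on AFFX. The share of all genes called that way was not computed. With arrays centred on ribosomal proteins 16 were lower on ABI, and the share of all genes under that centring was not computed. Their median log2 change was -0.72 on AFFX and -0.56 on ABI, beside 0.16 and 0.09 for all genes. The 6 of 19 lower on both, where 10.5% of all shared genes were, were AGGF1, GPANK1, GPATCH1, NKRF, RBM5 and SON. The list's median control signal was 7.97 on AFFX and 3.11 on ABI, above every array median. Genes of like signal were not compared, and the list was chosen with earlier results known. These shares and medians are therefore not a result about G-patch proteins. RBM5, a splicing regulator that binds DHX15, fell from a mean log2 signal of 9.10 to 6.51 on AFFX (5.99-fold, limma adjusted p = 9.47e-09) and from 4.05 to 0.75 on ABI (9.85-fold, adjusted p = 0.00044). GPATCH1, found with DHX35 in the spliceosome, changed by -2.07 and -3.92, whereas DHX35 itself had -0.43 and -0.51. NKRF, a nucleolar partner of DHX15, changed by -0.59 and -2.27, and PINX1, another nucleolar one, by -0.08 and -0.20.

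**Figure D4:**
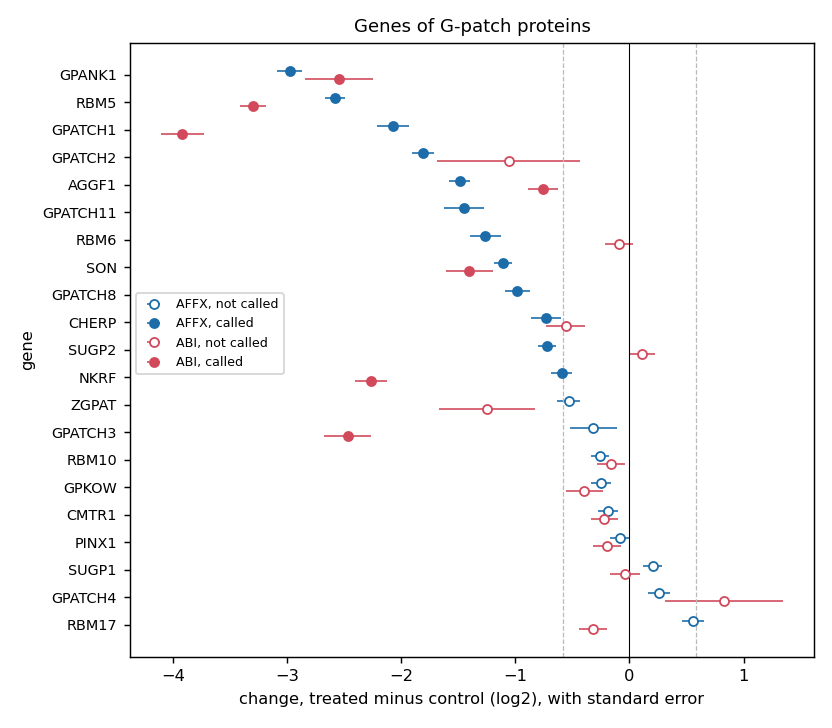
Log2 change, treated minus control, of 21 genes of G-patch proteins on AFFX (blue) and 19 on ABI (red), with standard errors from limma (3 arrays per group); filled circles were called, open ones were not, and dashed lines mark the 1.5-fold limit. No filled circle lies right of 0, and 6 genes are filled on both platforms.

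Among RNA helicases with other symbols, 2 of 21 were lower and 1 higher on AFFX, and 3 of 22 lower and 1 higher on ABI. These shares lower do not exceed the 14.2% and 14.8% of all genes. ZNFX1 was lower on both (-1.0 and -3.06), and ASCC3, of the complex that splits stalled ribosomes, was higher on both (0.69 and 0.80). With the probe of the highest mean signal, no gene of this list was higher on either platform. SNRNP200, the U5 helicase Brr2, was called lower on AFFX (-0.95) and not on ABI (-0.10, limma adjusted p = 0.678). The mitochondrial helicase SUPV3L1 was called on ABI with -0.97 and had -0.42 on AFFX, and the RNA sensor RIGI was called on ABI with -1.59 and had -0.57 on AFFX. The median log2 change of these genes was 0.13 on AFFX and -0.09 on ABI.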

How the data were processed

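RNA of A2780 cells was measured on 12 arrays, 6 per platform. On AFFX the deposited values are log2 signals that the authors computed with RMA. The study's methods name quantile normalization, but the arrays differed by up to 0.362 at the same rank, and they were used as deposited. On ABI they are linear intensities deposited after the authors' processing, of which log2 was taken here. Arrays were grouped by their GEO labels. Probes with 1 gene in the platform annotation were used (41091 of 54613 probe sets tested on AFFX, 62 control probe sets set aside, and 21089 of 33096 probes on ABI). limma (version 3.58.1, R 4.3.3) was fitted per platform, unpaired, to all probes tested, with Benjamini-Hochberg adjustment, and the single-gene probes were then taken from that fit. For the platform difference limma was fitted to all 12 arrays, with 1 variance per gene for both platforms. Both fits were also run on simulated arrays with independent noise and no shift between arrays. For the platform difference, every simulated gene had the same spread on a given platform. These runs therefore cannot vouch for the scaling or for the p-values of the platform difference. A gene was represented by the probe whose equal-variance test gave the smallest p, following the study's methods. Named genes are those called on both platforms, the 5 largest falls and rises called per platform, those with probes called in opposite directions, and the brightest AFFX representative of each role group. Other genes were named to account for every member. Members, lists, roles and tests were chosen with earlier results of these data known. The alternatives tried were other scalings, representatives, fold limits, filters and tests, a replicate block and leaving out each array.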

Additional observations from a re-analysis of the deposited data

Results flagged for a closer look

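The change differed between AFFX and ABI for 5 helicase genes by the limma test of the difference itself, given as the ABI change minus the AFFX change on the log2 scale. It was 1.08 for DDX11, 0.66 for DDX19B, -1.83 for DDX28, -0.41 for DDX52 and -1.54 for DHX32. The p-values of that test are approximate, as it took 1 variance per gene for both platforms. Treated ABI signals of DDX28 and DHX32 lay close to or somewhat above the ABI array medians, so the sizes of their differences are uncertain. DDX19B was called on neither platform (-0.26 on AFFX and 0.40 on ABI). Its 1 single-gene AFFX set was dim, with means of 5.23 in control and 4.98 in treated arrays, and the groups overlapped. A brighter AFFX set, shared with DDX19A, changed by 0.17 (limma adjusted p = 0.0996). Outside the single-gene probes, 1 of 9 probes shared with other genes was called: an AFFX set of DDX39B, ATP6V1G2-DDX39B and SNORD84 with a log2 change of -0.61 (limma adjusted p = 0.00663). The brighter set of the same genes changed by 0.01, and the ABI probes of DDX39B and ATP6V1G2 by 0.52 and 0.39, so a change of DDX39B (UAP56), which recruits mRNA export factors, was not shown. Groups of 3 arrays were too small for a test of outlying arrays.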

How the results depend on the processing

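The main counts were 10 lower and none higher on AFFX, 8 and 1 on ABI, 5 lower on both and 5 with a platform difference. Representatives were chosen anew in each fit. For the alternative scalings, the share of all genes called lower was not computed. Centring on the ribosomal protein genes moved the median of all probes by -0.30 on AFFX and -0.64 on ABI, over 1.5-fold for each ABI change, and gave 18 lower on AFFX, 24 lower and 0 higher on ABI, 12 lower on both and 21 differences; spiked controls (shift -0.42) gave 23 lower on AFFX and 8 on both. Higher calls were 16.4% of AFFX calls over all probes, 1.36%, 0.765% and 28.7% after these centrings and quantile normalization, and 43.3% on ABI, 2.24% on ribosomal protein genes and 15.5% with the block. Without a fold limit 20 were lower and 8 higher on AFFX and 9 lower on both, and with a 2-fold limit 6 and 5 were lower on AFFX and ABI and 0 higher on ABI. Quantile normalization gave 1 higher on AFFX (DDX5) and 8 differences, trend and robust estimation 2 higher on ABI, and the median over probes 6 lower on AFFX and 3 on both. With 1 array left out, 10 to 12 were lower and 0 to 2 higher on AFFX (DDX5 without control replicate 1, DDX5 and DDX51 without treated replicate 3), 6 to 7 lower on ABI, 4 to 6 lower on both, and 3 to 9 differed. With a replicate block the counts were 10 lower on AFFX, 5 lower and 0 higher on ABI, 4 lower on both and 4 differences. In their deviations from the group mean, same-numbered arrays correlated by 0.0746, 0.00403 and 0.327 on AFFX and 0.0342, -0.00667 and 0.0717 on ABI. Not every array correlated best with its own number: AFFX control replicate 1 had 0.324 with treated replicate 2. Whether arrays of the same number were processed together was not tested. Of RNA helicases with other symbols, 2 and 3 were lower on AFFX and ABI, 5 and 12 centred on ribosomal protein genes and 10 on AFFX centred on spiked controls. DDX20 and DDX28 were lower on both platforms in each alternative run. Calls for the median over probes used the median of the probes' adjusted p-values and are no test of the median change. Of 208 recomputed changes of called named genes, 195 kept direction and call, 12 lost the call and 1 turned: DDX59, 0.040 with its brightest set. DHX32 was not called on AFFX after quantile normalization (-0.48). Uncalled changes turned sign for DDX1 on AFFX (-0.0081 median-centred, -0.11 quantile, -0.25 ribosomal, -0.37 spiked) and on ABI (-0.29 ribosomal), DDX21 on ABI (-0.21 quantile, -0.47 ribosomal) and on AFFX (0.040 brightest set, -0.12 to 0.064 with an array left out), DDX25 on AFFX (-0.086 ribosomal, -0.21 spiked), DHX15 on ABI (-0.23 quantile, -0.55 ribosomal), DHX30 on AFFX (0.061 median of sets) and DHX58 on AFFX (-0.040 ribosomal, -0.16 spiked); beyond the scalings' own shift, the cause was not tested.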
